A study of Caenorhabditis elegans with 44 samples.

Results

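The 200 genes described here are those with the highest mRNA in *C. elegans* larvae that lack the RNA-dependent RNA polymerase RRF-3, relative to wild-type larvae. They were chosen by the log2 ratio of the mean *rrf-3(pk1426)* level to the mean wild-type level in the N2 background, with 0.5 added to both levels, and levels were given in RPM, the deposited mRNA value scaled to a common library total. The 200 members were taken from 20149 genes, after 1864 of the 22013 genes in the table had been left out for belonging to large families by symbol (*pals*, *srh*, *srw*, *col*, *clec*, *fbxa*, *fbxb*, *math*, *bath*, *nhr*, *cyp*, *ugt*, *his* and *msp*). The same values chose the members, so the difference between *rrf-3(pk1426)* and wild type is given below as a description, without a test.

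The study asked how PALS-22, a repressor of the response to intracellular pathogens, shapes small RNA (sRNA) pathways in the soma. All libraries were made from whole, starved, synchronized first-stage (L1) larvae, with 1 strain per genotype. The N2 mRNA libraries number 2 for wild type, 3 each for the *rrf-3(pk1426)* and the *pals-22(pig26)* mutants and 2 for the double mutant, *rrf-3(pk1426); pals-22(pig26)*, and N2 sRNA was read in 3 libraries of wild type and 3 of *pals-22(pig26)*. In strains that all carry *otIs356*, an integrated repetitive array that expresses nuclear TagRFP from a *rab-3* promoter in neurons, both kinds of RNA were read in 4 libraries of wild type, 4 of *vsra-1(tm1637)*, 3 of *pals-22(pig26)* and 3 of *vsra-1(tm1637); pals-22(pig26)*. The *pig26* allele is an in-frame deletion made by genome editing, and *vsra-1* encodes an Argonaute. No sRNA library of *rrf-3(pk1426)* was analysed here, so the sRNA of the members is described in strains with functional RRF-3. Since each genotype is 1 strain, differences fixed in a strain besides its named allele cannot be told apart from the effect of that allele.

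RRF-3 copies mRNAs into double-stranded RNA, which Dicer cuts into primary small interfering RNAs (siRNAs). In embryos these are loaded onto the Argonaute ERGO-1 and lead other polymerases to make abundant secondary siRNAs, which are antisense to the mRNA and are bound by the worm-specific Argonautes (WAGOs). Loss of RRF-3 removes this class of siRNA, de-silences its target genes, many of which are duplicated genes or pseudogenes, and makes worms hypersensitive to introduced double-stranded RNA. The sRNA counts per gene used here are antisense to the gene, as shown by miRNA genes: 30 annotated miRNAs held 8.82 RPM in N2 wild type while the genes annotated opposite them held 375469 RPM.

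Totals ranged from 36498609 to 61806727 in the N2 mRNA libraries, 11483077 to 43362769 in N2 sRNA, 5479218 to 33903511 in *otIs356* mRNA and 7950015 to 21594026 in *otIs356* sRNA. In sRNA, a count of 0 allows at most 0.261 RPM in N2 and 0.377 in *otIs356*, from 3 counts. The mRNA values are scaled per gene, and 3 reads on a transcript of 731 bases, the members' median, were estimated to be worth up to 0.117 RPM in N2 and 0.808 in *otIs356*. These limits cover counting error only. The mRNA of *rrf-3* itself was at 4.58 to 5.26 RPM in N2 wild type, 2.13 to 2.5 in *rrf-3(pk1426)* and 1.71 to 1.85 in the double mutant. *pals-22* mRNA was higher in *pals-22(pig26)* (46.0 to 47.1 RPM) than in wild type (22.3 to 22.4), and since the deletion is in frame this checks no label. In *otIs356*, *vsra-1* mRNA was at 9.25 to 10.8 RPM in *vsra-1(tm1637)* and 9.39 to 13.97 in wild type, which overlap, and it was at 127 to 170 in *pals-22(pig26)* beside 232 to 328 in the double mutant, so the level of this mRNA does not check the *vsra-1* labels either. The 7 markers of L1 muscle, neurons, intestine and hypodermis were present in every N2 group, with summed levels of 794 to 1146 RPM in wild type and 502 to 604 in *rrf-3(pk1426)*. In the same libraries, 10 oocyte and germ line markers summed to 8.28 to 16.8 RPM in wild type and 42.0 to 54.03 in *rrf-3(pk1426)*, and 7 early embryo markers to 85.6 to 86.6 and 123 to 161.2. The 5 later larval markers were lower, at 56.1 to 147 RPM in wild type and 24.2 to 28.1 in *rrf-3(pk1426)*. Their part in the levels of the members was not tested. In whole larvae, more cells that express a gene and more RNA per cell cannot be told apart.

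The median level of the members was 2.21 RPM in wild type, 30.5 in *rrf-3(pk1426)*, 8.23 in *pals-22(pig26)* and 26 in the double mutant. The median log2 ratio of *rrf-3(pk1426)* to wild type, which is what chose them, was 3.22, beside 0.23 over the 20149 genes. All 3 *rrf-3(pk1426)* libraries lay above both wild-type libraries for 200 members, as for 51.7% of the 20149 genes. *rrf-3(pk1426)* replicate 2 held the highest of the 3 values for 166 members and replicate 3 the lowest for 180, beside 62.4% and 50.7% of the 20149 genes. *dpy-7*, a hypodermal collagen gene, followed the same order, at 15.4, 22.3 and 10.4 RPM in *rrf-3(pk1426)* replicates 1 to 3, and was at 9.07 and 3.39 RPM in wild type. Its part in the order of the members was not tested. Both double-mutant libraries lay above both wild-type libraries for 199 members, beside 49.2% of the 20149 genes. The exception was *ZK673.12*, a pseudogene that was at 4.53, 5.21 and 2.27 RPM in *rrf-3(pk1426)* and at 0 in both double-mutant libraries. The double mutant lay below every *rrf-3(pk1426)* library for 97 members and above every one for 23, where 33.8% and 7.88% of the 20149 genes did. These counts of double-mutant libraries use the wild-type or *rrf-3(pk1426)* libraries that chose the members. They are thus partly set by that choice and are descriptions. In wild type 54 members (27%) were below 1 RPM, beside 37.8% of the 20149 genes, and 5 members were at 0 in both libraries (*Y50E8A.18*, *EEED8.18*, *C14A6.9*, *ZK673.12* and *T02G6.4*).

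**Figure D1:**
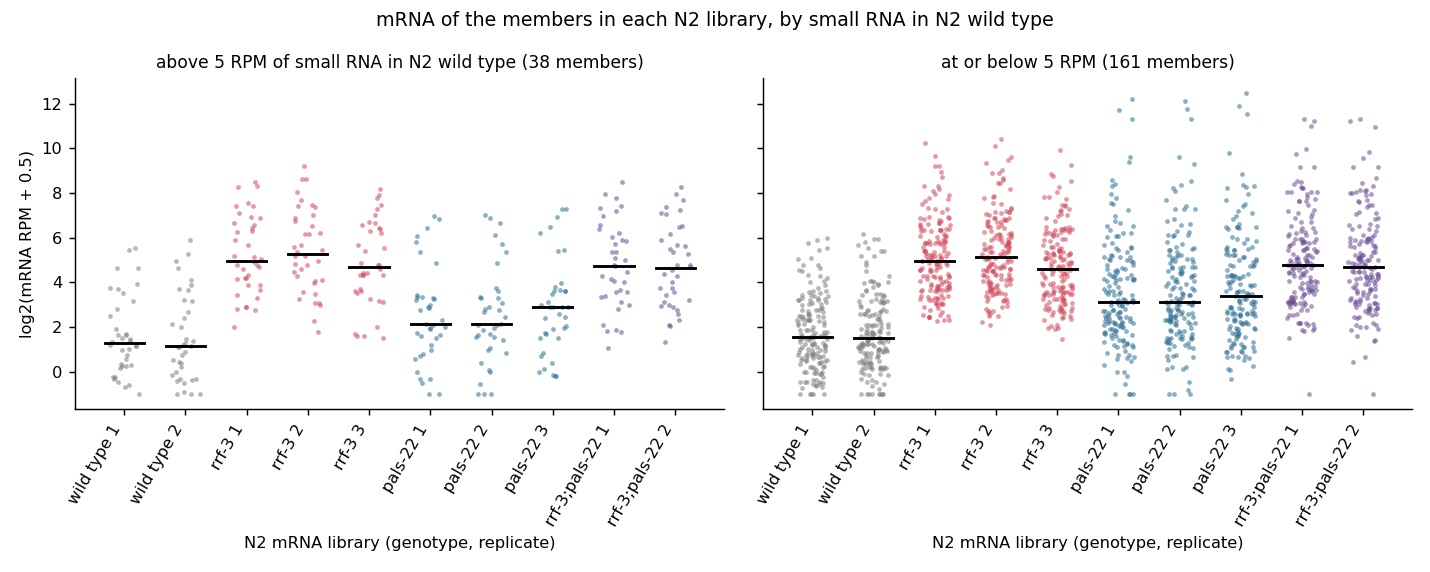
mRNA of the 200 members in each N2 library, as log2(RPM + 0.5), drawn separately for the 38 members above 5 RPM of sRNA in N2 wild type and the 161 at or below it; points are genes and black lines medians. The medians of the *rrf-3(pk1426)* and double-mutant libraries sit above those of wild type in both sets, with *pals-22(pig26)* between them.

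The top of the ranking was held by *T16A1.10* with a score of 6.08, *F55C9.5* with 6.06, *E01G4.5* with 6.02 and *F55C9.3* with 5.92, followed by the pseudogene *T02G6.10* with 4.76. *E01G4.5*, a known target of ERGO-1 siRNAs, was at 2.66 and 1.78 RPM in wild type and at 173, 177 and 179 RPM in *rrf-3(pk1426)*. *T16A1.10* was at 0.999 and 0.813 RPM in wild type and at 102, 107 and 74.0 RPM in *rrf-3(pk1426)*. For both genes the *rrf-3(pk1426)* libraries lay far above those of wild type. Further down were *F20E11.17* at rank 9 (4.35) and *irg-5*, an infection response gene, at rank 11 (4.26). *irg-5* was at 3.13 and 1.54 RPM in wild type and 55.01, 69.6 and 37.1 in *rrf-3(pk1426)*. The ranking had no gap at its end. The last members, *ZK105.13*, *pqn-88*, *nspb-12*, *F59B1.10* and *cng-1*, scored 2.89 to 2.88, and the next genes, *nspe-3*, *C01G6.3*, *Y116A8B.1*, *ins-20* and *Y17D7B.3*, scored 2.87.

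The sRNA of the members in N2 wild type fell into a small group with very abundant sRNA and a large remainder with almost none. Of 199 members with an sRNA entry, 38 (19.1%) were above 5 RPM in the mean of 3 libraries, beside 27.3% of all 21842 genes with an entry in both tables. Above 100 RPM the order was the opposite, with 23 members (11.56%), 12 (6.03%) of the 200 genes ranked next and 2.1% of all genes. The median member had 0.0870 RPM. The 10 members with most sRNA held 87.8% of the members' sRNA, and the 38 above 5 RPM held 99.9%. In *otIs356* wild type, 37 members were above 5 RPM, and 36 were above it in both backgrounds. A low rank in sRNA here does not show the sRNA that a gene has in embryos or adults, which were not sampled.

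**Figure D2:**
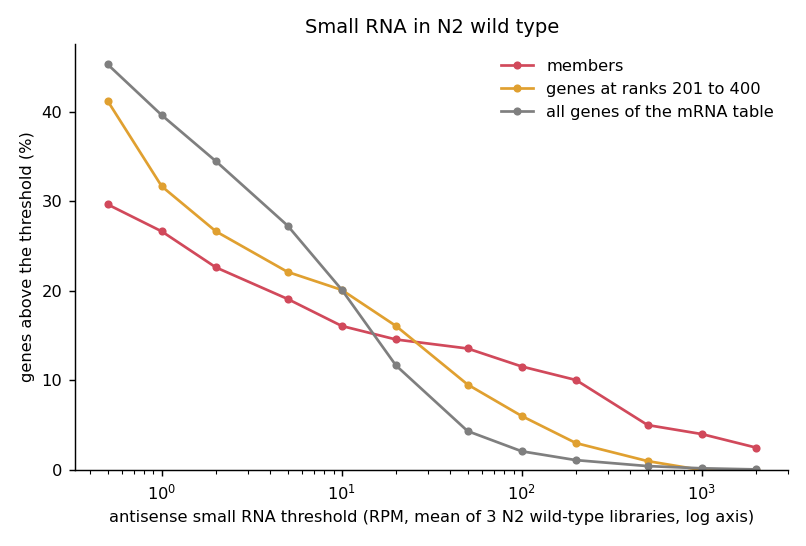
Percent of genes above each sRNA level (RPM, log axis) in N2 wild type, for the members, the 200 genes ranked next, and all genes of the mRNA table. The members lie below all genes at 5 RPM (19.1% against 27.3%) and above them at 100 RPM (11.56% against 2.1%).

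*F39E9.7*, a pseudogene and known ERGO-1 target on chromosome II (chrII:3306144-3307505, minus strand, WBcel235), had the most sRNA, with 8050, 8082 and 8471 RPM in the wild-type libraries. *E01G4.5* (chrII:13472401-13473995, plus strand) had 7670, 7456 and 7294 RPM. *Y37E3.30* had 4924, 4571 and 4635 RPM. For each of the 3 genes the spread between libraries was small against the level. The pseudogene *Y43F8B.8* had 2535, 3051 and 2738 RPM and *T16A1.10* (chrII:2091539-2092094, minus strand) 2158, 2037 and 2054. *T02G6.10*, *F55C9.3* and *F15D4.5* followed between 1424 and 1653 RPM, and then *ZK402.3* and *F55C9.5* between 550 and 712. *F55C9.3* (chrV:19287009-19288173) and *F55C9.5* (chrV:19290574-19293125) lie side by side on the minus strand. All 10 of these genes are thus among the most sRNA-rich of the table, where 98 genes of 21842 exceeded 500 RPM. At the other end, *irg-5* had 0 in all 3 libraries.

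Several sRNA-rich members share sequence with other genes, some of which are members. Of the 38 members above 5 RPM, 16 (42.1%) had more than 10% of their 31-base words in other genes. This held for 22.1% of all members, 19.1% of the genes ranked next and 13.8% of eligible genes. The other gene need not be a member. Words were matched on either strand, so a gene that overlaps on the opposite strand counts too. *Y36E3A.2*, with 91.9% of its words in other genes, shares most with *fbxa-209*, which overlaps it in this way. A 70-base stretch is identical in *F29G9.1* (chrV:6039554-6039673, plus strand), *Y13C8A.1* (chrX:16883726-16883820, plus strand), *Y49E10.30* (chrIII:12386953-12387072, plus strand) and the pseudogene *Y51H7C.15* (chrII:1461120-1461239, minus strand), on 4 chromosomes. It is shown because 3 of the 4 genes gained sRNA in the *vsra-1(tm1637)* strain described at the end. The stretch lies within 1 exon in each gene and has 8 exact copies in the WBcel235 assembly, from which the sequences below were read 5′ to 3′ on the gene's strand, with the shared bases in capitals.
F29G9.1: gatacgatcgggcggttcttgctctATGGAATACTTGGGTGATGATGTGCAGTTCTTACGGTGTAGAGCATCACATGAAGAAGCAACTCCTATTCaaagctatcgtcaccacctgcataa
Y13C8A.1: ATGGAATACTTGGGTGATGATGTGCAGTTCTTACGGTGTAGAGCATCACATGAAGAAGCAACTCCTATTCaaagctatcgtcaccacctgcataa
Y49E10.30: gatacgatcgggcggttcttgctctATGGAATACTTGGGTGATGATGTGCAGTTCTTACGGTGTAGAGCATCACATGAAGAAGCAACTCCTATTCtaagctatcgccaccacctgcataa
Y51H7C.15: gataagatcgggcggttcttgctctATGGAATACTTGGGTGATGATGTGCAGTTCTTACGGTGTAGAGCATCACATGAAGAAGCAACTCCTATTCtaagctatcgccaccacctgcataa

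In N2 wild type, sRNA was at 333, 291 and 308 RPM for *F29G9.1*, 146, 137 and 137 for *Y13C8A.1*, 141, 121 and 142.2 for *Y49E10.30*, and 328, 315 and 334 for *Y51H7C.15*. A read from the stretch cannot be placed at 1 of the copies, so the split of counts among these genes depends on how such reads were assigned. The pseudogenes *ZK402.3* (chrX:1402701-1402876 shown, plus strand) and *ZK380.5* (chrX:1648068-1648227 shown, minus strand) share a longer run of 126 bases, in capitals below, which occurs at these 2 places only. They lie on the same chromosome in opposite orientation, and both are members with sRNA. The run does not lie within 1 exon in either gene.
ZK402.3: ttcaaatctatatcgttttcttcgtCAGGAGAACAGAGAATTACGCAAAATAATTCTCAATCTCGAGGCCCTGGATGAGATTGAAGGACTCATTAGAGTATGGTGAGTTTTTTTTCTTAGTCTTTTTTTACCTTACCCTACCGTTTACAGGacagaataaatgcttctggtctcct
ZK380.5: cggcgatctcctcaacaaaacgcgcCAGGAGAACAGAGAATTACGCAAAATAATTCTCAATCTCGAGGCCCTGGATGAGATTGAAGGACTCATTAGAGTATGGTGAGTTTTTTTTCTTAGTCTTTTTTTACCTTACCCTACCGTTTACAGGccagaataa

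*ZK402.3* had 712, 699 and 651 RPM of sRNA in N2 wild type and *ZK380.5* 84.5, 88.9 and 90.0. Their mRNA was at 136, 131 and 105 RPM and at 9.24, 7.91 and 8.35 RPM in *rrf-3(pk1426)*, so the copy with more mRNA also had more sRNA.

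The 199 members with an annotated position were short genes, and many lay on chromosome V. It held 81 (40.7%) of them, 58 (29.1%) of the 199 annotated genes ranked next and 24.6% of eligible genes. The median transcript length was 731 bases in 3 exons, beside 970 bases in 4 exons for the genes ranked next and 1128.5 bases in 5 exons for eligible genes. Pseudogenes made up 14 (7.04%) of the members, 12 (6.03%) of the genes ranked next, 9.32% of eligible genes and 7 (18.4%) of the 38 sRNA-rich members. Only 5 members lay within 2 Mb of *rrf-3* (2.51%, beside 4.85% of eligible genes). The members also sat near each other, with 60 of 199 (30.2%) within 10 kb of another member in 25 clusters, beside 22 (11.06%) for the genes ranked next. The largest clusters held 5 members each, *nspe-6*, *nspe-2*, *nspe-8*, *Y38E10A.14* and *nspe-7* on chromosome II, and *K09D9.1*, *C49G7.7*, *C49G7.12*, *C49G7.10* and *irg-2* on chromosome V. By symbol, 4 of 8 *nspe* genes (nematode-specific peptides) were members, 4 of 56 *pqn* genes (glutamine- and asparagine-rich proteins), 3 of 39 insulin-like *ins* genes and 3 of 35 *srlf* genes. The neighbours *numr-1* and *numr-2*, which respond to metals, have identical sequence, and *sago-2* shares 80.4% of its words with *ppw-1*, so the split of reads within these pairs is uncertain. These are descriptions and no share was tested.

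The double mutant allowed a test in libraries that the choice of members did not use: *rrf-3(pk1426); pals-22(pig26)* against *pals-22(pig26)*, which differ by the same *rrf-3* allele. Tests used edgeR's quasi-likelihood fit over all genes, with a call at an adjusted p under 0.1. Of the 200 members, 163 rose and 9 fell, where over all 18986 genes tested 18.5% rose and 17.0% fell. The median log2 fold change (log2FC) of the members was 1.51, beside -0.03 over all genes. The double-mutant libraries lay above all 3 *pals-22(pig26)* libraries for 176 members and below them for 12, where 34.7% and 19.5% of all genes tested did. The groups differed in more than the members: in *pals-22(pig26)* the summed level of 14 sperm markers was 121 to 358 RPM and that of 5 later larval markers 267 to 602, beside 3.49 to 98.3 and 24.0 to 77.8 in the double mutant, and their part in these calls was not tested. Without double-mutant replicate 1, 71.0% of the 200 members were called higher and 5 members lower, and without replicate 2, 77.0% and 3 members. Over all genes 8.95% and 13.5%, respectively, were then called higher.

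The sRNA-rich members rose in the double mutant with few exceptions. Of the 38, 32 rose and 0 fell, with a median log2FC of 1.98. Of the 161 members with little or no sRNA, 130 rose and 9 fell, with a median of 1.43. *E01G4.5* was at 3.5, 3.41 and 3.65 RPM in *pals-22(pig26)* and at 145 and 139 in the double mutant (log2FC 5.21, SE 0.14, adjusted p = 7.92e-07). *F39E9.7* was at 10.3, 9.51 and 12.3 RPM and then at 126 and 131 (log2FC 3.47, SE 0.13, adjusted p = 3.22e-06). For these ERGO-1 targets *pals-22(pig26)* stayed near wild type (12.9 and 12.4 RPM for *F39E9.7*), and the levels rose with the *rrf-3* allele. *T16A1.10* was at 1.79, 1.6 and 6.88 RPM in *pals-22(pig26)* and at 74.4 and 72.5 in the double mutant (log2FC 4.32, SE 0.48, adjusted p = 0.000876). *F55C9.3* had the largest rise of the members, from 0.306, 0.197 and 0.599 RPM to 31.8 and 27.4 (log2FC 6.18, SE 0.29, adjusted p = 2.05e-05). Its neighbour *F55C9.5* went from 1.14, 1.5 and 3.35 RPM to 52.3 and 50.7 (log2FC 4.58, SE 0.39, adjusted p = 0.000297). *Y51A2A.16* (log2FC 4.79, SE 1.19), *C01G10.4* (3.88, SE 0.40) and *sdz-1* (3.75, SE 0.22) were also among the 8 largest rises, the estimate for *Y51A2A.16* being the least precise of these.

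Within a list of 11 known ERGO-1 targets, *E01G4.5* and *F39E9.7* had the largest changes. Of these 11 genes, 9 were in the table and 7 of the 9 rose in the double mutant, with 0 falling, at a median log2FC of 1.21. Known targets outside the list were not examined as a set. *W04B5.2* rose by a log2FC of 2.01 (SE 0.07) and *W05H12.2* by 1.33 (SE 0.08), and *K02E2.6*, with 3312 RPM of sRNA in wild type, by 0.69 (SE 0.07). *K02E2.6* is no member, and of the 458 genes of the table above 100 RPM of sRNA 23 are members. The 11 genes of the RRF-3 pathway itself held no member. Of these, 1 rose (*rde-4*, log2FC 0.71, a double-stranded RNA binding partner of Dicer) and 7 fell, *rrf-3* included.

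Members of stress and immune families had little sRNA, and most of those in the lists rose in the double mutant as well. *hsp-16.2*, a small heat shock protein, was at 34.2, 33.7 and 44.9 RPM in *pals-22(pig26)* and at 200.7 and 176 in the double mutant (log2FC 2.21, SE 0.33, adjusted p = 0.00257). In *rrf-3(pk1426)* it was at 238, 388 and 174 RPM. The inducible chaperone *hsp-70* rose from 2.82, 2.72 and 3.93 RPM to 26.6 and 18.7 (log2FC 2.72, SE 0.29, adjusted p = 0.000683), and in the list of inducible heat shock genes 8 of 8 tested rose. Of these, *hsp-16.48* and *hsp-16.49* had identical values, so they are not separate observations. *hsp-16.1* was at 0 RPM and was not tested. Among 77 antimicrobial genes tested, 30 rose and 6 fell, and the 4 that are members all rose. *irg-5* went from 4.03, 3.15 and 5.12 RPM to 18.5 and 20.2 (log2FC 2.12, SE 0.28, adjusted p = 0.00174), below its levels in *rrf-3(pk1426)*. *cnc-2*, a caenacin antimicrobial peptide, had a log2FC of 2.1 (SE 0.31), *spp-20*, a saposin-like protein, of 1.61 (SE 0.11), and *irg-2* of 1.26 (SE 0.23). *nspe-7*, a nematode-specific peptide gene, was at 62.3 and 70.3 RPM in wild type, 1199, 1364 and 971 in *rrf-3(pk1426)*, 222, 273 and 251 in *pals-22(pig26)* and 1007 and 914 in the double mutant (log2FC 1.83, SE 0.13, adjusted p = 0.000139 against *pals-22(pig26)*). Its 4 groups of libraries overlap only between *rrf-3(pk1426)* and the double mutant.

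Single members outside these families also rose. *her-1*, which directs male development, was at 2.68 and 2.89 RPM in wild type and 33.3, 33.4 and 21.99 in *rrf-3(pk1426)*, and rose from 7.55, 9.21 and 11.8 RPM in *pals-22(pig26)* to 18.2 and 22.2 in the double mutant (log2FC 0.98, SE 0.19, adjusted p = 0.00748). The summed level of 4 genes that act in sexual development, *mab-3*, *tra-1*, *xol-1* and *her-1* itself, changed little. Such a sum can hide opposite changes of single genes. Their sum was 45.8 to 49.6 RPM in wild type and 46.1 to 55.7 in *rrf-3(pk1426)*. It was 39.5 to 47.4 in *pals-22(pig26)* and 39.9 to 47.4 in the double mutant. *puf-8*, a Pumilio-type RNA-binding protein, rose by 1.55 (SE 0.21). *cutl-25*, a cuticlin-like gene, rose by 1.84 (SE 0.22) while of the 75 cuticle genes tested 9 rose and 23 fell, and the transporter *pgp-8* rose by 1.37 (SE 0.22) while of 88 detoxification genes 36 rose and 8 fell. The lists of 413 tested chemoreceptors (56 rose, 61 fell) and 60 tested sperm genes (7 rose, 11 fell) held no member.

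Some members were higher in *pals-22(pig26)* than in *rrf-3(pk1426)*, by factors that varied widely. In N2, 134 members (67.0%) were more than 2-fold higher in *pals-22(pig26)* than in wild type, beside 9.48% of the 20149 genes, and all 3 *pals-22(pig26)* libraries lay above wild type for 173, where 34.7% of those genes did. This comparison shares its wild-type libraries with the choice of members and is a description. For 19 members the mean level in *pals-22(pig26)* exceeded that in *rrf-3(pk1426)*, by 1.06-fold (*Y94H6A.10*) to 71.7-fold (*W04G5.16*), with a median of 3.95-fold. 8 of the 19 were over 5-fold higher. *F20E11.17* was at 4.5 and 5.89 RPM in wild type, 120, 142.1 and 84.1 in *rrf-3(pk1426)* and 4732, 4391 and 5603 in *pals-22(pig26)*. *eol-1*, which encodes a decapping exonuclease homolog, was at 4.15 and 5.2, at 47.6, 55.3 and 33.9, and at 772, 778 and 890 RPM in the same order. The 9 members that fell in the double mutant against *pals-22(pig26)* all belong to these 19. The choice of the 19 and this test use the same *pals-22(pig26)* libraries, so that agreement is partly set by the choice. *F20E11.17* fell to 2537 and 2375 RPM (log2FC -1.11, SE 0.18, adjusted p = 0.00348) and *eol-1* to 577 and 571 (log2FC -0.62, SE 0.15, adjusted p = 0.018). The others were *F15H10.10* (-1.18), *F26G1.3* (-1.0), *ddn-1* (-0.65), *Y37H2A.14* (-0.61), *B0507.8* (-0.53), *T20D4.7* (-0.51) and *skr-5* (-0.40), a Skp1-related ubiquitin ligase subunit. Without double-mutant replicate 1 the calls of *eol-1* (adjusted p = 0.109) and *ddn-1* (0.126) were lost, and without replicate 2 those of *eol-1* (0.101) and *F26G1.3* (0.111). In a list of 14 pathogen response genes outside the *pals* family, which holds *eol-1* and *skr-5*, 0 rose and 8 fell. *sago-2*, a secondary siRNA Argonaute on chromosome I, was at 2.29 and 1.74 RPM in wild type, 23.6, 23.9 and 21.3 in *rrf-3(pk1426)*, 41.0, 40.2 and 43.6 in *pals-22(pig26)* and 40.3 and 37.7 in the double mutant, which did not differ from *pals-22(pig26)* by the test (log2FC -0.21, SE 0.09, adjusted p = 0.132). Among 10 such Argonautes, *vsra-1*, *hrde-1* and *wago-4* rose in the double mutant and *ppw-1* and *csr-1* fell.

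**Figure D3:**
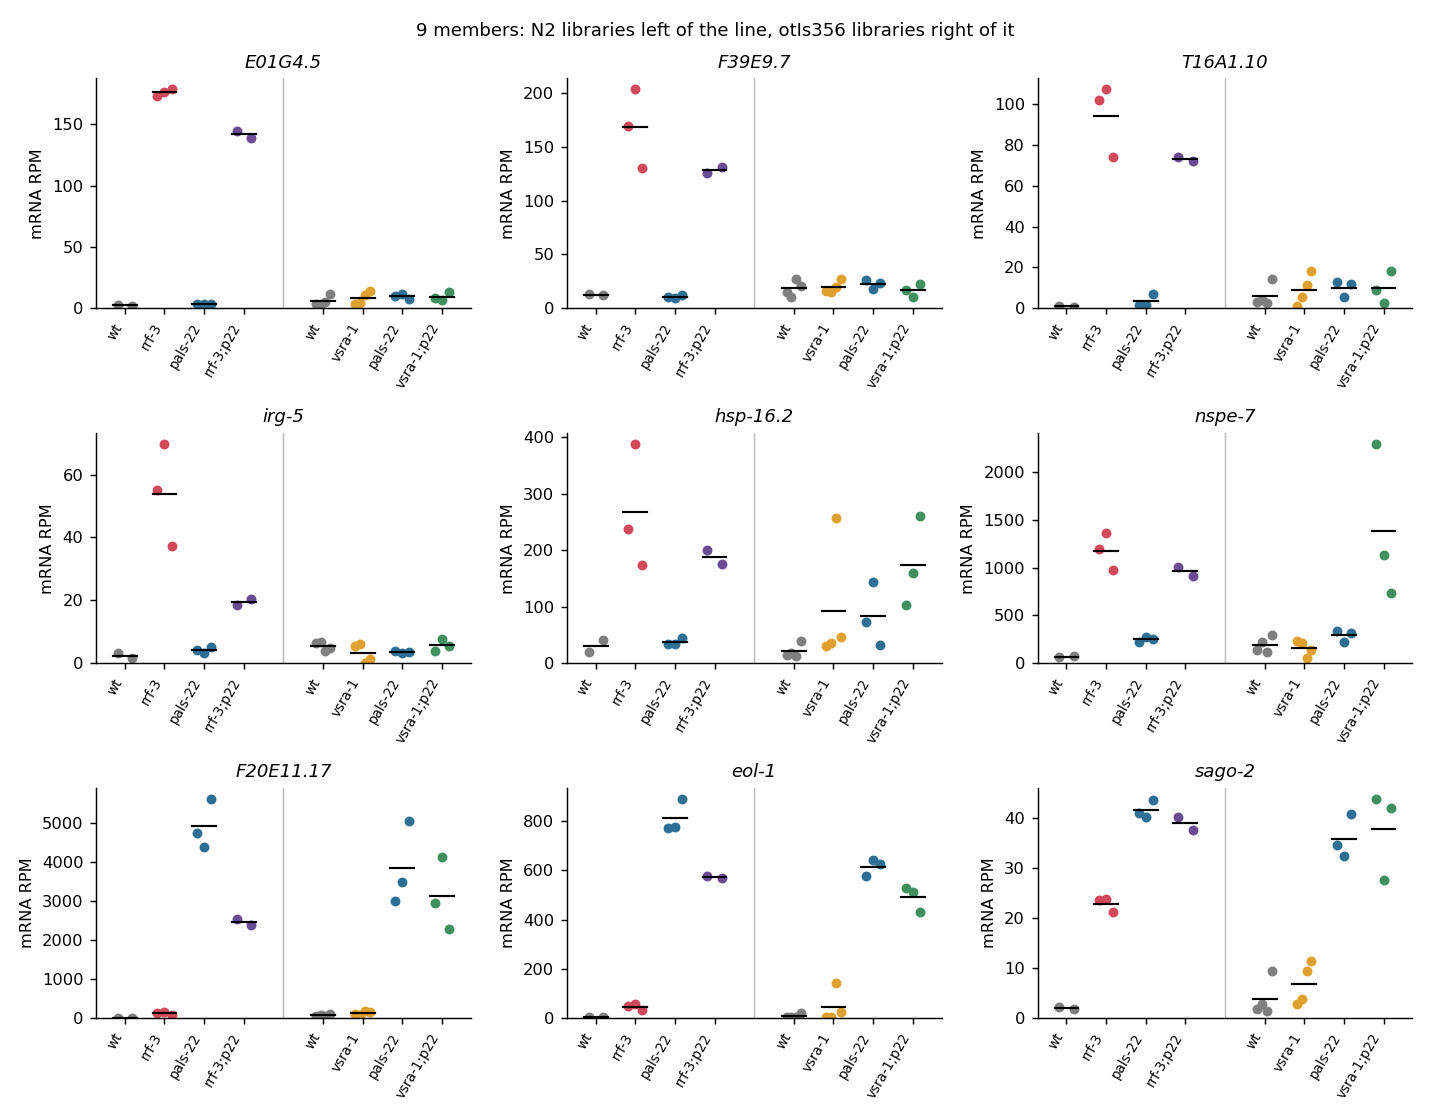
mRNA (RPM, each panel on its own linear axis from 0) of 9 members in every library of N2 (left of the line) and *otIs356* (right), with points for libraries and lines for group means; p22 stands for *pals-22(pig26)*. *E01G4.5*, *F39E9.7* and *T16A1.10* are high only in the 2 genotypes with *rrf-3(pk1426)*, and *F20E11.17* and *eol-1* are highest where *pals-22* is mutant.

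The *otIs356* strains allowed a test of *pals-22(pig26)* against wild type in libraries that the choice of members did not use. Of the 200 members, 44 rose and 2 fell by edgeR's quasi-likelihood test, where 5.78% of 16724 genes rose and 5.10% fell. The median log2FC was 1.07, beside -0.01. The libraries of the groups did not overlap for 74 members (37.0%) that were higher and 2 (1%) that were lower, beside 17.3% and 7.94% of all genes tested. Of the 19 members that were higher in *pals-22(pig26)* than in *rrf-3(pk1426)* in N2, 18 rose, with a median log2FC of 5.05. *F20E11.17* was at 56.6, 66.8, 50.96 and 112 RPM in wild type and 2993, 3480 and 5047 in *pals-22(pig26)* (log2FC 5.52, SE 0.35, adjusted p = 1.21e-06). *eol-1* was at 4.94, 4.31, 3.67 and 22.3 RPM and then at 578, 641 and 626 (log2FC 5.99, SE 1.05, adjusted p = 0.00387). These genes were high in *pals-22(pig26)* in both backgrounds, with no overlap between the groups. The neighbours *B0507.8* (log2FC 7.08, SE 0.96) and *ddn-1* (6.93, SE 0.95), which lie next to each other on chromosome V, and *W04G5.16* (7.29, SE 1.24) had the largest rises. *sago-2* was at 1.88, 2.88, 1.34 and 9.47 RPM in wild type and 34.6, 32.3 and 40.8 in *pals-22(pig26)* (log2FC 3.04, SE 0.51, adjusted p = 0.00281).

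Of the 38 sRNA-rich members, 5 rose and 1 fell, with a median log2FC of 0.71. *E01G4.5* was at 3.78, 3.59, 5.09 and 11.8 RPM in *otIs356* wild type and 9.58, 11.8 and 7.34 in *pals-22(pig26)*, which overlap (log2FC 0.46, SE 0.45, adjusted p = 0.504). *F39E9.7* had a log2FC of 0.00 (SE 0.31). The 2 members that fell were *sysm-1*, from 5.30, 4.13, 1.70 and 4.26 RPM to 1.39, 0.501 and 0.880 (log2FC -2.32, SE 0.53, adjusted p = 0.022), and *Y37E3.30*, from 6.49, 6.53, 4.58 and 8.37 to 4.76, 3.98 and 4.05 (log2FC -0.85, SE 0.20, adjusted p = 0.0305). Both calls were lost without *pals-22(pig26)* replicate 2 (adjusted p = 0.118 for *sysm-1* and 0.135 for *Y37E3.30*) or replicate 3 (0.101 and 0.126), and that of *Y37E3.30* also with library totals alone (0.208).

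The *otIs356* mRNA libraries of 1 genotype were not alike. *dpy-7* was at 8.72, 10.3, 9.5 and 113 RPM in the 4 wild-type libraries and at 11.5, 16.7, 207 and 106 in the 4 *vsra-1(tm1637)* libraries. It was at 139, 150 and 79.6 RPM in *pals-22(pig26)* and at 63.2, 28.7 and 110 in the double mutant. The share of each library held by the members varied in the same libraries, with 0.239, 0.266, 0.164 and 0.593% in wild type and 0.296, 0.293, 1.00 and 0.505% in *vsra-1(tm1637)*. It was 1.81, 1.90 and 1.86% in *pals-22(pig26)*. In N2 the share was 0.127 to 0.140% in wild type, 1.19 to 1.88% in *rrf-3(pk1426)*, 1.71 to 1.96% in *pals-22(pig26)* and 2.02 to 2.12% in the double mutant. Without wild-type replicate 4, 112 members rose and 2 fell in *pals-22(pig26)*, where 17.5% of all genes rose and 15.2% fell. Leaving out any other 1 of the compared libraries gave 27 to 29 members that rose, beside 3.10 to 3.60% of all genes. Without the 3 libraries of high *dpy-7* in wild type and *vsra-1(tm1637)*, a setting chosen after seeing the data, 131 of 199 members rose and 3 fell, where 24.0% of all genes rose and 22.8% fell. The part that stage or tissue composition plays in these counts was not tested.

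**Figure D4:**
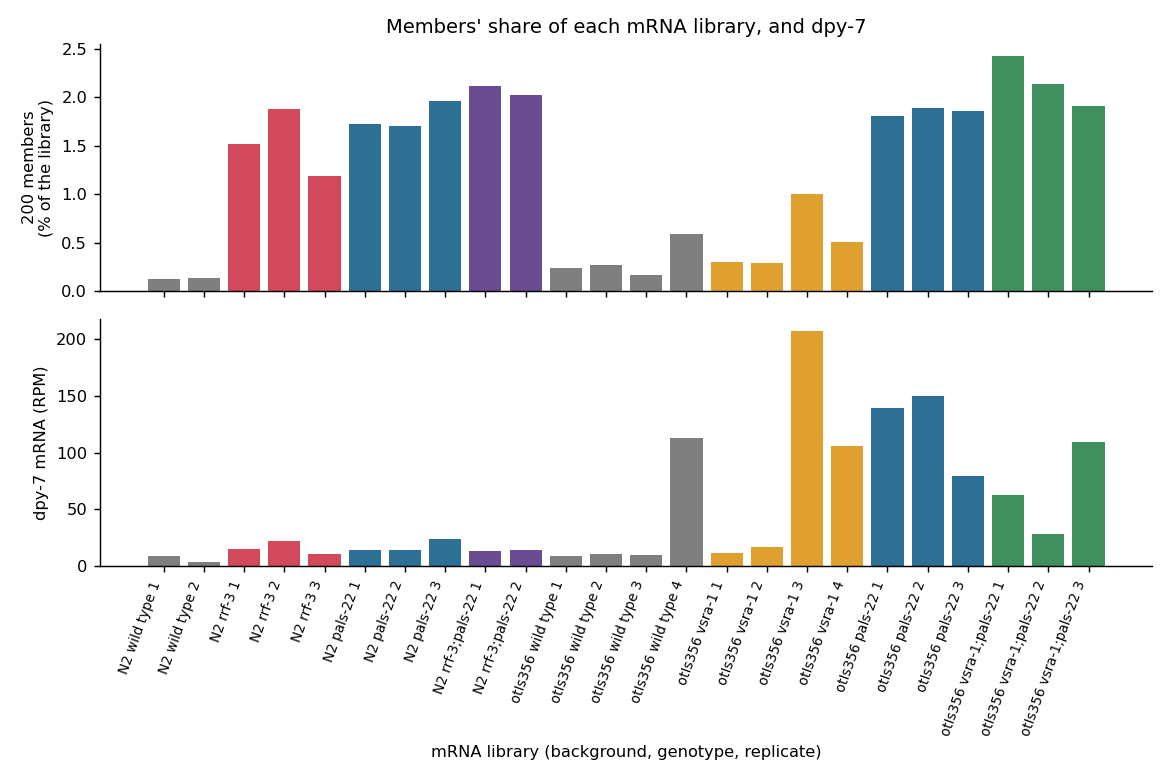
Percent of each mRNA library held by the 200 members and RPM of *dpy-7*, as bars per library and genotype. Wild-type replicate 4 and *vsra-1(tm1637)* replicates 3 and 4 of *otIs356* have *dpy-7* above 100 RPM, beside 8.72 to 16.7 in the other libraries of these genotypes.

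No member's mRNA passed edgeR's quasi-likelihood test for the *vsra-1(tm1637)* allele. Against wild type 0 members rose and 0 fell, where 0.00598% of 16724 genes rose and 0% fell, and 31 members were higher and 1 lower at an unadjusted p under 0.05 (16% of members, beside 12.4% of all genes). DESeq2 called 11 members higher (5.61% of those it tested) and 0 lower, beside 2.26% and 3.21% of all genes. The members' median log2FC was 0.60, beside 0.03 over all genes, and it was 0.43 without the 3 libraries of high *dpy-7* and 0.27 without *vsra-1(tm1637)* replicate 3. In *vsra-1(tm1637); pals-22(pig26)* against *pals-22(pig26)*, again 0 members rose and 0 fell, where 0% of genes rose and 0.00598% fell. DESeq2 called 12 members higher (6.12% of those it tested), beside 0.216% of all genes, and 53 members (26.5%) were higher and 0 lower at an unadjusted edgeR p under 0.05, beside 3.83% of all genes in either direction. The median log2FC was 0.55, beside 0.00, and the libraries did not overlap for 73 members (36.5%) that were higher and 3 (1.5%) that were lower in the double mutant, beside 6.97% and 4.12% of all genes. *nspe-7* was at 339, 219 and 315 RPM in *pals-22(pig26)* and at 2294, 1127 and 730 in the double mutant (log2FC 2.26, SE 0.55, adjusted p = 0.912). *spp-20* was at 28.4, 23.6 and 29.2 RPM and then at 153, 70.3 and 58.6 (log2FC 1.79, SE 0.33, adjusted p = 0.735). Neither passed the adjusted threshold, although the groups do not overlap.

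The sRNA of members changed in *pals-22(pig26)* in both directions. In N2, 45 of the 200 members passed the filter on low sRNA (above 5 RPM in a library), and 9 rose and 18 fell, where 18.3% of 7243 genes rose and 20.8% fell. This balance depends on the scaling: with library totals alone in place of TMM factors the median log2FC of all genes moved to 0.35, 24 members (53.3%) rose and 4 fell, and 69.4% of all genes rose and 8.27% fell. In *otIs356*, 61 members passed, 16 rose and 15 fell, where 11.7% of 8042 genes rose and 14.6% fell. A member with little sRNA in wild type passes the filter only through a library where it is high. The filter thus favours rises for such members. Of those at or below 5 RPM in N2 wild type, 4 of 7 rose and 0 fell in N2. In *otIs356*, 13 of 23 rose and 1 fell. Of the 38 above 5 RPM, 5 rose and 18 fell in N2, and 3 rose and 14 fell in *otIs356*. The 38 were chosen by the N2 wild-type libraries that the N2 test also uses, which can favour falls in N2. The share over all genes chosen in the same way was not counted. The 2 comparisons share no library. Of the 18 members that fell in N2 and the 15 that fell in *otIs356*, 11 were common (61.1% and 73.3%), and of the 9 and 16 that rose, 5 were common (55.6% and 31.2%). The same overlap over all genes was not counted, so these shares do not show a trait of the members. A member could be common only if tested in both backgrounds, where 45 and 61 were tested.

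*cpn-4*, a calponin, showed the clearest loss of sRNA. Its sRNA went from 190, 163 and 192 RPM in N2 wild type to 75.6, 72.3 and 64.0 in *pals-22(pig26)* (log2FC -1.70, SE 0.08, adjusted p = 2.15e-08). In *otIs356* it went from 140, 146, 123 and 115 RPM to 57.2, 61.7 and 49.2 (log2FC -1.31, SE 0.07, adjusted p = 3.38e-08). Its mRNA was higher in the same strains, at 24.6 and 30.6 RPM in N2 wild type and 66.8, 70.03 and 89.9 in *pals-22(pig26)*, and in *otIs356* it rose from 20.5, 28.6, 25.2 and 50.2 to 81.1, 99.8 and 79.9 (log2FC 1.26, SE 0.33, adjusted p = 0.0491). *eol-1* gained sRNA along with its mRNA, from 0.261, 0.471 and 0.238 RPM to 11.07, 12.5 and 12.5 in N2 (log2FC 4.95, SE 0.23, adjusted p = 1.54e-08) and by a log2FC of 5.13 (SE 0.40, adjusted p = 5.82e-07) in *otIs356*. *R07C12.1* did so too, from 1.83, 2.12 and 2.29 RPM to 29.5, 23.5 and 30.4 in N2 (log2FC 3.41, SE 0.14, adjusted p = 8.25e-09). In N2 both genes passed the filter of 5 RPM only through *pals-22(pig26)* libraries, the group where they are high. *sago-2* gained sRNA in N2, from 15.5, 12.24 and 14.9 RPM to 24.3, 24.5 and 27.95 (log2FC 0.48, SE 0.09, adjusted p = 0.00157), while in *otIs356* the log2FC was 0.37 (SE 0.18, adjusted p = 0.176). Of the 10 members with most sRNA, 6 fell in N2, with *F55C9.5* the most, at 645, 550 and 557 RPM in wild type and 581, 530 and 461 in *pals-22(pig26)* (log2FC -0.50, SE 0.10, adjusted p = 0.0018). The others were *F15D4.5*, *Y43F8B.8*, *F55C9.3*, *T02G6.10* and *Y37E3.30*. The 10 were chosen by their sRNA in the same N2 wild-type libraries, which can favour falls. *E01G4.5*, at 9008, 9566 and 9202 RPM in N2 *pals-22(pig26)*, was not called (log2FC -0.04, SE 0.09, adjusted p = 0.793). Over the 10 genes the log2FC ranged from -0.50 to -0.04 with TMM factors and from -0.15 to 0.31 with library totals alone, under which 0 fell and 3 rose.

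*F15D4.5* and *Y36E3A.2* were called in opposite directions in the 2 backgrounds. The sRNA of *F15D4.5* was at 1464, 1424 and 1499 RPM in N2 wild type and 1440, 1248 and 1560 in *pals-22(pig26)* (log2FC -0.39, SE 0.09, adjusted p = 0.00629), with overlapping RPM. In *otIs356* it went from 365, 293, 246 and 289 RPM to 853, 865 and 668 (log2FC 1.33, SE 0.15, adjusted p = 1.51e-05). The level in *otIs356* wild type was thus far below that in N2 wild type. *Y36E3A.2* went from 218, 266 and 171 RPM to 60.5, 108 and 58.8 in N2 (log2FC -1.88, SE 0.22, adjusted p = 3.68e-05) and from 23.8, 33.2, 25.2 and 76.1 to 65.3, 133 and 73.2 in *otIs356* (log2FC 1.08, SE 0.40, adjusted p = 0.0755). *Y36E3A.2* overlaps *fbxa-209* on the opposite strand, so its counts rest on the strand used. The backgrounds were sequenced as separate tables, and the difference between them was not tested.

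The sRNA of 6 members was called in *vsra-1(tm1637)*. Against *otIs356* wild type 3 rose and 3 fell of 61, where 2.66% of 8042 genes rose and 2.3% fell. The 3 that rose all carry the 70-base stretch printed above. *Y13C8A.1* went from 81.0, 130, 73.6 and 132 RPM to 171, 167, 237 and 197 (log2FC 0.69, SE 0.18, adjusted p = 0.0646), *F29G9.1* from 252, 171, 137 and 232 to 297, 320, 456 and 328 (log2FC 0.63, SE 0.18, adjusted p = 0.0805) and *Y51H7C.15* from 129, 126, 88.7 and 118 to 159, 160, 230 and 187 (log2FC 0.48, SE 0.13, adjusted p = 0.0592). The 4th carrier, *Y49E10.30*, had a log2FC of 0.49 that missed the threshold (SE 0.17, adjusted p = 0.171). Since these genes share the stretch, they are not 4 separate observations. Their calls were fragile, and 0 members were called higher without wild-type replicate 3, *vsra-1(tm1637)* replicate 3 or *vsra-1(tm1637)* replicate 4, 1 without wild-type replicate 1 or 2, and 5 without wild-type replicate 4. The members that fell were *Y17D7C.1* (log2FC -0.61, SE 0.08, adjusted p = 0.000346), its neighbour *Y17D7C.6* (-0.59, SE 0.09, adjusted p = 0.00135) and *ZC21.10* (-0.45, adjusted p = 0.0955).

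In *vsra-1(tm1637); pals-22(pig26)* against *pals-22(pig26)*, the sRNA of 8 members rose and that of 4 fell, where 6.69% of genes rose and 3.34% fell. *F15D4.5* had the largest fall, from 853, 865 and 668 RPM to 160, 123 and 173 (log2FC -2.49, SE 0.17, adjusted p = 2.51e-07), so the higher level of *pals-22(pig26)* was not seen in the double mutant. *F14F9.4* went the other way, from 3.33, 4.30 and 2.73 RPM to 12.3, 7.46 and 7.82 (log2FC 1.29, SE 0.17, adjusted p = 0.000177), near its wild-type 8.81, 9.36, 8.98 and 8.68. *ZK177.9* rose from 0.682, 1.05 and 0.248 RPM to 6.27, 2.91 and 3.26 (log2FC 2.51, SE 0.65, adjusted p = 0.0319). Of the 2 groups, only the library at 6.27 RPM was above the 5 RPM of the filter. *eol-1* fell from 12.7, 22.2 and 16.104 RPM to 11.7, 6.73 and 4.70 (log2FC -1.26, SE 0.34, adjusted p = 0.0368) while its mRNA, at 530, 513 and 431 RPM in the double mutant, did not pass the test (log2FC -0.34, SE 0.96, adjusted p = 1). The counts depended on the libraries, with 1 member called higher without *pals-22(pig26)* replicate 1, 2 without replicate 3, and 5 without double-mutant replicate 1 or 2, while 9 were called lower without double-mutant replicate 1 and 2 without any other but *pals-22(pig26)* replicate 1.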

How the data were processed

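Whole L1 larvae were bleached, synchronized in M9 and sequenced for mRNA (poly(A), paired end) or sRNA (polyphosphatase-treated). sRNA counts were deposited raw per gene, as the authors obtained them with featureCounts from reads of 15 to 30 nt that CutAdapt had trimmed and ShortStack had placed on ce11. The methods name counts on both strands and an analysis of antisense reads, and that the deposited tables hold antisense reads was read from miRNA genes. mRNA values are estimated counts from kallisto, run by the authors within RNAlysis, and were deposited scaled per gene, in proportion to reads per effective length. Of these values 91.9% (N2) and 84.8% (*otIs356*) are not whole, and they were rounded before testing.

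The members and gene lists were chosen with earlier results of these data known. The genes named are the top and the threshold of the ranking, those with most sRNA, the largest called changes without overlap and the members of the lists. A few others (*her-1*, *puf-8*, *nspe-7*, *R07C12.1*) were chosen after their values were seen. Each table was fitted as a whole with edgeR 4.0.16 in R 4.3.3 (TMM, quasi-likelihood test, Benjamini-Hochberg over all genes tested, call at 0.1). mRNA genes passed filterByExpr (minimum 10, total 15) and sRNA genes 5 RPM in a library. DESeq2 1.42.0, library totals, no filter, a replicate block, 2 groups only and leave-one-out were tried. p-values measure the spread between these libraries, which the labels do not tie to separate cultures. Positions are from WBcel235 (ce11). 1 member, WBGene00021189, is not annotated there. The fits were tested on simulated data.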

Additional observations from a re-analysis of the deposited data

Results flagged for a closer look

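In groups of 4 libraries, a library was set apart where its gap to the nearest other library, as a share of the group's range, passed Dixon's 95% critical value for 4 values. Chance gives this in about 1 in 20 groups, and 8 of 60 groups passed. In *otIs356* wild-type mRNA, replicate 4, the library of high *dpy-7*, stood above the other 3 for *T16A1.10* (0.879), *F55C9.3* (0.892), *C08E3.15* (0.865), *Y51H7C.15* (0.904) and *F15D4.5* (0.860). In *vsra-1(tm1637)* mRNA, *ZK402.3* was at 9.32 RPM in replicate 1 and 6.49 to 6.75 in the others (0.909). In *otIs356* wild-type sRNA, *Y37E3.30* was at 4807 RPM in replicate 3 beside 5205 to 5215 (0.975), and *Y43F8B.8* was high in replicate 1 (3362 RPM, 0.838).

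The effect of *vsra-1(tm1637)* on sRNA differed between *pals-22(pig26)* and wild type by the interaction term of the edgeR quasi-likelihood fit for 7 of 61 members tested. The difference in log2FC was -2.93 for *F15D4.5* (SE 0.21, adjusted p = 8.62e-07), 1.51 for *F14F9.4* (SE 0.22, adjusted p = 0.000487), 0.71 for *Y17D7C.1* (SE 0.12, adjusted p = 0.0014) and 3.43 for *ZK177.9* (SE 0.90, adjusted p = 0.0352). It was 0.74 for *ZC21.10* (SE 0.21, adjusted p = 0.0469), -0.79 for *Y87G2A.16* (SE 0.25, adjusted p = 0.0897) and -0.46 for *Y37E3.30* (SE 0.15, adjusted p = 0.0924). *ZK177.9* had little sRNA in *pals-22(pig26)* and its *vsra-1* double mutant, as given above. Of all 8042 genes 716 were called. In mRNA, 0 members and 1 of 16724 genes were called by edgeR.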

How the results depend on the processing

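Of the counts recomputed under other settings, 172 stayed within 1.5 times the reported count and 43 did not. Of the log2 fold changes of named genes that were tallied, 444 kept direction and call and 33 lost the call. Not every sign held in N2 sRNA with library totals alone. There *Y37E3.30* went from -0.24 to 0.10, *F55C9.3* from -0.34 to 0.01 and *T02G6.10* from -0.30 to 0.05, none of them called. *E01G4.5* went from -0.04, not called, to 0.31, called higher. With library totals alone, N2 double-mutant mRNA had 5 members lower (9 reported), N2 sRNA 24 higher and 4 lower (9 and 18), *otIs356* *pals-22(pig26)* mRNA 1 lower (2) and *vsra-1(tm1637)* sRNA 11 higher (3). This scaling moved the median of all genes by 0.35 in N2 sRNA and 0.24 in *otIs356* *pals-22(pig26)* mRNA. With DESeq2, members called higher in *otIs356* were 76 in *pals-22(pig26)* mRNA (44), 11 in *vsra-1(tm1637)* mRNA (0), 12 in the *vsra-1* double mutant's mRNA (0) and 7 in *vsra-1(tm1637)* sRNA. Without a filter, sRNA gave 27 higher in N2, 30 higher in *otIs356* *pals-22(pig26)* (16) and 5 higher in *vsra-1(tm1637)*. With only the 2 groups compared, *otIs356* *pals-22(pig26)* mRNA had 73 higher, and without the 3 libraries of high *dpy-7* 131. Leaving out 1 library each gave 3 to 8 lower for the N2 double mutant, 27 to 112 higher and 0 to 2 lower for *otIs356* *pals-22(pig26)* mRNA, 0 to 5 higher for *vsra-1(tm1637)* sRNA, and 1 to 6 higher and 2 to 9 lower for the *vsra-1* double mutant's sRNA. Of the 200 members, 114 stayed in the first 200 with a pseudocount of 5 RPM, 134 with 0.1, 191 with TMM-scaled values and 160 to 193 without 1 library.

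Equal replicate numbers were not treated as pairs, since in no comparison was every same-numbered pair correlated above 0.1 (N2 double mutant and *pals-22(pig26)*, r = -0.39 and 0.01). This criterion does not show that the samples are unpaired. In *otIs356* mRNA, *vsra-1(tm1637)* and wild type had r of 0.36, 0.35, -0.20 and 0.56 for replicates 1 to 4. The library names of N2 mRNA number some libraries otherwise than the titles do, and by those numbers, tried after seeing the data, r was -0.01 and -0.34, with 156 members called higher and 9 lower under the block. Samples correlated best with their own number in 2 of 6 cases in N2 sRNA, 5 of 6 in *otIs356* *pals-22(pig26)* sRNA and 0 to 3 of 6 to 8 elsewhere. With the replicate block, members called higher were 154 in the N2 double mutant (163), 99 in *otIs356* *pals-22(pig26)* mRNA and 1 in the *vsra-1* double mutant's mRNA.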
